A study of Mus musculus with 8 samples.

Results

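Immediate-early genes and heat-shock genes were followed in RNA of CD45- CD31+ cells, sorted from tumors as endothelial cells. The members were 27 immediate-early genes and 11 heat-shock genes, taken as a given list of symbols, and all 38 were found among the 20057 genes of the data. Mice of the C57BL/6 strain, male and 8 weeks old, carried subcutaneous B16-F10 tumors (a mouse melanoma cell line) started from 250000 cells. The 4 agonistic CD40 mAb tumors (mice 5N, 6L, 6R and 10N) received 30 µg of FGK4.5, an antibody that activates the receptor CD40, and the 4 isotype control tumors (mice 5L, 7N, 8N and 9L) received 30 µg of the rat IgG2a antibody 2A3. Both antibodies were injected beside the tumor 2 times, on days 13 and 16, and by the labels of all 8 samples the mice were killed 1 day after the second injection. Every tumor was digested with Collagenase II and DNase I for 40 min at 37 °C and sorted for live CD45- CD31+ cells (about 100000 per tumor), and 1 library per tumor was made from 10 ng of RNA. No undigested tissue was analysed here, and every value below was measured after digestion and sorting.

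Immediate-early genes are transcribed within minutes of a stimulus from factors already present in the cell, among them serum response factor, which binds the CArG box, and CREB, which binds the cAMP response element. Many encode transcription factors of the AP-1, EGR and NR4A families, and others encode phosphatases and RNA-binding proteins that end the signal. Heat-shock genes encode chaperones that keep proteins folded; their induction runs through heat shock factor 1, which binds heat-shock elements. In endothelium, immediate-early genes respond to flow, growth factors and inflammatory mediators, and both classes are known to respond to the handling and enzymatic digestion of tissue.

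The libraries differed 21.9-fold in depth, from 2971689 reads on genes in 5L to 64938728 in 5N, and the 3 shallowest (5L, 7N and 8N) were isotype control libraries. Levels below are normalized reads, the reads on a gene divided by a size factor of the library, and a single read counted as 0.118 in 5N and as 2.44 in 5L. Markers of endothelial cells, all 12 of them tested, summed to between 50046 and 71906 normalized reads in the agonistic CD40 mAb libraries and to between 44308 and 60553 in the isotype control libraries. Markers of other cells were also measured in the sorted material. Those of melanoma cells summed to 35745 to 60849.7 against 38674 to 93734, those of fibroblasts to 120637 to 249098 against 88497 to 216733, those of mural cells to 14466 to 24685 against 11041 to 34908, and the 15 leukocyte markers, 9 of which were tested, to 318 to 594 against 222 to 561, and no marker was at 0 in all libraries. Library 5L had the lowest endothelial, leukocyte, fibroblast and mural sums and the highest melanoma sum, with all 7 melanoma markers highest in it. In bulk RNA of sorted cells, fewer cells of a type and less RNA per cell cannot be told apart.

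Agonistic CD40 mAb treatment was compared with isotype control treatment to see whether the members differed. No immediate-early gene and no heat-shock gene passed the threshold used for single genes, group means at least 1.5-fold apart with a limma p no higher than 0.05 (n = 4 libraries per group). Over all 12969 genes tested, 1.28% were higher and 0.239% lower at this threshold, and 0.0154% (2 genes) had an adjusted p under 0.05, against 19 genes without 5L. The number of members with an unadjusted p of at most 0.05 was 0 by limma, 0 by edgeR and 0 by DESeq2, and 0 members passed the threshold by any of the 3. Non-overlapping groups were found for 0 of 38 members, while 1.57% of all genes tested had them. The lowest p among members belonged to Fosb (limma p = 0.0832), and the lowest exact permutation p was 0.2 for Fosb and Nr4a2, where 4 against 4 libraries can reach 0.0286. The 95% confidence interval (CI) of the log2 fold change included 0 for all 38 members. Its upper end lay above a ratio of 1.5 for 28 of them, and its lower end below the inverse of that ratio for 13.

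**Figure D1:**
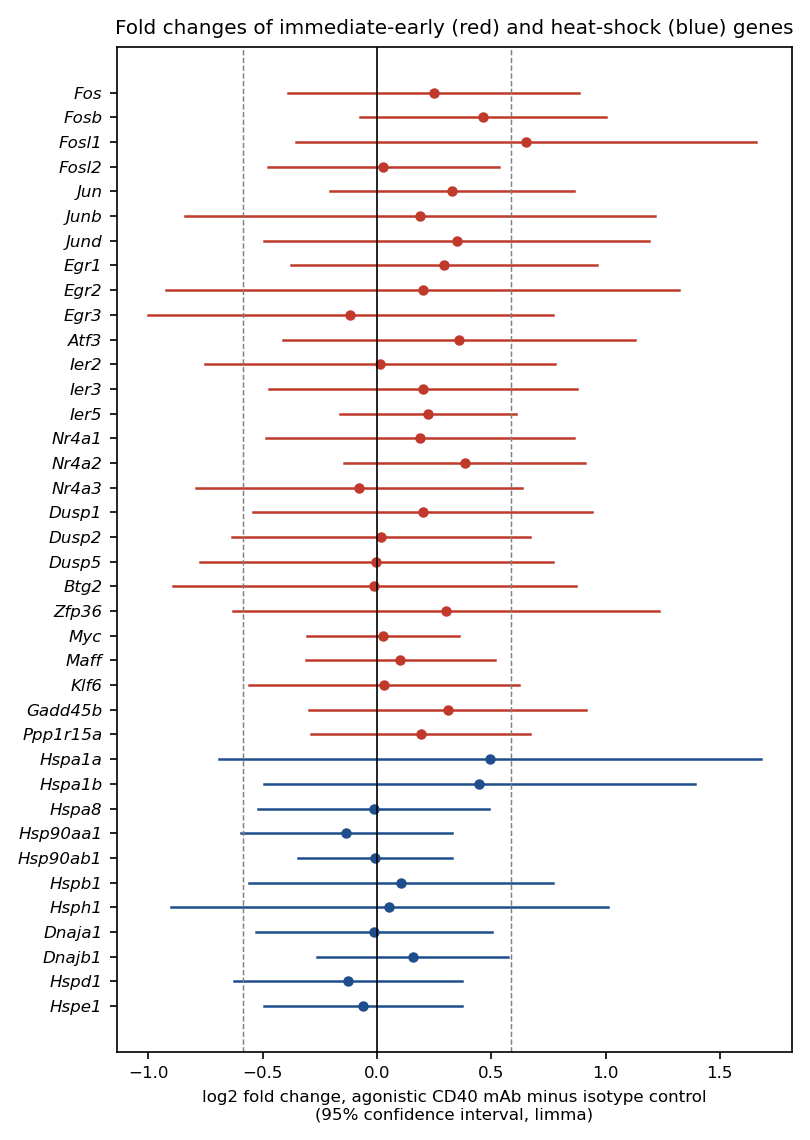
Log2 fold change of the 38 members (x axis; agonistic CD40 mAb minus isotype control, limma on log2(normalized reads + 1)), with points for the estimate, bars for the 95% CI over 4 against 4 libraries, immediate-early genes in red, heat-shock genes in blue and dashed lines at a ratio of 1.5 in either direction. All 38 bars cross 0, and the points lie between -0.13 (Hsp90aa1) and 0.65 (Fosl1).

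The immediate-early genes had a median log2 fold change of 0.20, from -0.12 for Egr3 to 0.65 for Fosl1, and 23 of 27 estimates were above 0, against 51.3% of all genes tested with a median of 0.0046. These counts moved when single libraries were left out. Without isotype control library 5L the immediate-early median was -0.00069 with 13 of 27 estimates above 0, and without 6L it was 0.07 with 15 of 27. Without 5N it was 0.35 with 27 of 27, and without 7N 0.37 with 25 of 27. The heat-shock genes had a median log2 fold change of -0.0079, from -0.13 for Hsp90aa1 to 0.50 for Hspa1a, with 5 of 11 above 0. Their median was 0.10 (10 of 11 above 0) without 5L, 0.13 (8 of 11) without 9L and -0.09 (3 of 11) without 7N. On the scale of normalized reads without logarithm, 20 of 27 immediate-early genes had a ratio of group means above 1.

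Among the immediate-early genes, the Fos proteins pair with Jun proteins to form the transcription factor AP-1. Values by library are given in the order 5N, 6L, 6R, 10N and then 5L, 7N, 8N, 9L. Fos (chr12:85473890-85477273, plus strand; mm10, GENCODE M21) measured 2584, 4186, 2998 and 3817 normalized reads in the agonistic CD40 mAb libraries and 1591, 4810.5, 2967 and 2741 in the isotype control libraries. Its lowest value was in 5L and its highest in 7N, both isotype control libraries, so that the agonistic CD40 mAb values lay inside the isotype control range. The group values were 3397 ± 735 against 3027 ± 1333 normalized reads (SD, n = 4), and the log2 fold change was 0.25 (95% CI -0.39 to 0.88) with limma p = 0.408, adjusted p = 0.9997, exact permutation p = 0.571. Fos was the most abundant immediate-early gene per length, at a mean of 1524 normalized reads per kb of transcript.

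Fosl1, which encodes the AP-1 subunit Fra-1 (chr19:5447547-5455946, plus strand), measured 74.3, 126, 56.6 and 100.46 normalized reads in the agonistic CD40 mAb libraries and 19.6, 107, 66.7 and 60.03 in the isotype control libraries. The value in 5L stood below the other 7 and rested on 8 reads. The log2 fold change of Fosl1 was 0.65 (95% CI -0.36 to 1.66), with limma p = 0.182, adjusted p = 0.9997, exact permutation p = 0.343. Without 5L it was 0.18, the lowest of the 8 values with a library left out. Of its transcript windows of 50 bases, 52.6% also occur in Ccdc85b, which overlaps it on the opposite strand, and the library kit does not mark strand, so that reads of these genes cannot be told apart there.

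The other Fos family members had more reads. Fosb ranged from 926 in 5L to 2403 in 6L, with group values of 1957 ± 431 against 1455 ± 505 normalized reads and a log2 fold change of 0.46 (95% CI -0.072 to 1.00). Its 3 highest values were in 6L, 10N and 7N, and the groups overlapped. Without 7N, Fosb passed the threshold (ratio 1.59, log2 fold change 0.67, limma adjusted p = 0.9998). The p level of the threshold was reached in that fit by 2.70% of all genes before adjustment. Fosb also reached this level without 6R (ratio 1.47) and without 5L and 7N together (ratio 1.41), but its ratios there were too small. In those fits 1.71% and 2.64% of all genes reached it. Fosl2 ranged from 1694 in 5L to 3688 in 7N and had a log2 fold change of 0.028 (95% CI -0.48 to 0.53).

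Of the Jun subunits, Jun ranged from 1351 in 5L to 3653 in 10N, with group values of 2531 ± 842 against 1986 ± 479.5 normalized reads and a log2 fold change of 0.33 (95% CI -0.21 to 0.86). Junb (chr8:84974484-84978718, minus strand) measured 130.1, 609, 309.9 and 863 normalized reads in the agonistic CD40 mAb libraries and 329.9, 378, 353 and 286 in the isotype control libraries. Its lowest and its highest value were both in agonistic CD40 mAb libraries (5N and 10N), and the isotype control libraries lay between them. The group values were 478 ± 324 against 337 ± 39.3 normalized reads, and the log2 fold change was 0.19 (95% CI -0.84 to 1.22) with limma p = 0.692, adjusted p = 0.9997, exact permutation p = 0.857. Jund, named after its values were seen, had the same libraries at its ends, with 100.1, 323, 174 and 449 normalized reads in the agonistic CD40 mAb libraries and 178, 199.8, 159 and 169 in the isotype control libraries. Its log2 fold change was 0.35 (95% CI -0.49 to 1.19) with limma p = 0.379, adjusted p = 0.9997, exact permutation p = 0.486. Without 5N, which held the lowest value of both, Junb (ratio 1.77, limma adjusted p = 0.9995) and Jund (ratio 1.79, limma adjusted p = 0.9995) passed the threshold. At the same threshold in that fit, 174 of 12993 genes were higher and 37 lower. Its p level alone, before adjustment, was reached by 2.18% of all genes. Of the windows of Jund, 48.3% also occur in Gm11175 on the opposite strand.

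Atf3, an AP-1 partner induced by stress, ranged from 222 in 5L to 795 in 7N and had a log2 fold change of 0.36 (95% CI -0.41 to 1.13). Maff, a small Maf protein that pairs with other leucine-zipper factors, ranged from 219.9 in 5L to 419 in 7N with a log2 fold change of 0.10 (95% CI -0.31 to 0.52). Both had their lowest value in 5L and their highest in 7N, as Fos and Fosl2 did.

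The EGR proteins are zinc-finger transcription factors of the early response. Egr1 measured 3186, 4692, 2920.5 and 3229.8 normalized reads in the agonistic CD40 mAb libraries and 1429.6, 4615, 2931 and 3224 in the isotype control libraries, highest in 6L and 7N and lowest in 5L. The group values were 3507 ± 802 against 3049.8 ± 1306 normalized reads, and the log2 fold change was 0.29 (95% CI -0.38 to 0.96) with limma p = 0.354, adjusted p = 0.9997, exact permutation p = 0.486. Egr2 (chr10:67535475-67542188, plus strand) had the largest spread of the immediate-early genes, with 159.7, 344, 203 and 209 normalized reads in the agonistic CD40 mAb libraries and 61.1, 497, 207 and 210.2 in the isotype control libraries. The 8.14-fold range lay between isotype control libraries 5L and 7N, with 25 reads behind the value in 5L, and the 4 agonistic CD40 mAb values lay inside it. The log2 fold change of Egr2 was 0.20 (95% CI -0.92 to 1.32) with limma p = 0.7, adjusted p = 0.9997, exact permutation p = 0.8286, while its ratio of group means was 0.938. Egr3 ranged from 69.0 in 5N to 239 in 6L and had a log2 fold change of -0.12 (95% CI -1.003 to 0.77).

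The NR4A genes encode orphan nuclear receptors. Nr4a1 ranged from 816 in 5N to 2515 in 6L, with a log2 fold change of 0.19 (95% CI -0.48 to 0.86). Nr4a2 ranged from 88.5 in 8N to 213 in 6L, with group values of 143 ± 50.98 against 105 ± 11.2 normalized reads and a log2 fold change of 0.38 (95% CI -0.14 to 0.91), and it passed the threshold without 5N (ratio 1.51, limma adjusted p = 0.9995). In the fit without 5N, 174 of 12993 genes were called higher, and 2.18% of all genes reached the p level of the threshold before adjustment. Per length Nr4a2 was the least abundant immediate-early gene, at 34.7 normalized reads per kb. Nr4a3 and Dusp2 were the 2 of 27 immediate-early genes above the mean of the libraries in 5L. Nr4a3 ranged from 373 in 5N to 1002 in 5L, the only one of 27 with its highest value in 5L, and its log2 fold change was -0.077 (95% CI -0.79 to 0.64).

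Dusp1, Dusp2 and Dusp5 encode phosphatases that switch off MAP kinases. Dusp1 ranged from 753 in 5L to 3019 in 7N, Dusp2 from 61.5 in 5N to 169 in 6L and Dusp5 from 46.4 in 5L to 128 in 7N, and their log2 fold changes were 0.20 (95% CI -0.54 to 0.94), 0.018 (95% CI -0.63 to 0.67) and -0.0038 (95% CI -0.78 to 0.77). The values of Dusp2 and Dusp5 were low, with 33 and 19 reads in the libraries with fewest reads, and 20.54% of the windows of Dusp5 also occur in a gene on the opposite strand. Zfp36 encodes tristetraprolin, which binds AU-rich mRNAs and speeds their decay. It ranged from 523 in 5L to 2912 in 7N, with a log2 fold change of 0.30 (95% CI -0.63 to 1.23). Btg2, an antiproliferative gene, ranged from 320.1 in 5L to 1651 in 7N, with a log2 fold change of -0.011 (95% CI -0.89 to 0.87). Zfp36, Btg2, Dusp1 and Dusp5 all had their lowest value in 5L and their highest in 7N.

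Ier2, Ier3 and Ier5 are small immediate-early response genes. Ier2, named after its values were seen, measured 152, 501, 285 and 558 normalized reads in the agonistic CD40 mAb libraries and 288, 349.7, 378 and 306 in the isotype control libraries, with the same ends as Junb and Jund, and its log2 fold change was 0.013 (95% CI -0.75 to 0.78). Ier3 ranged from 481 in 5L to 1451 in 7N and Ier5 from 259 in 5L to 489.9 in 6L, with log2 fold changes of 0.20 (95% CI -0.47 to 0.88) and 0.22 (95% CI -0.16 to 0.61). The transcription factor Klf6 (chr13:5861482-5870394, plus strand) was among the most abundant members and measured 3121, 3484, 3195 and 3054 normalized reads in the agonistic CD40 mAb libraries and 1816, 5574, 3044 and 3158 in the isotype control libraries. The 4 agonistic CD40 mAb values were close to each other, with an SD of 189.6, and the isotype control values had an SD of 1573, spanning from 5L to 7N. Its log2 fold change was 0.031 (95% CI -0.56 to 0.62) with limma p = 0.909, adjusted p = 0.9997, exact permutation p = 0.8286, and its ratio of group means was 0.946.

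Myc, a regulator of growth, varied least of the immediate-early genes, from 591 in 8N to 873 in 7N, with a log2 fold change of 0.026 (95% CI -0.31 to 0.36). Gadd45b, a stress sensor of the MAP kinase pathway, ranged from 75.8 in 5L to 171 in 7N, with a log2 fold change of 0.31 (95% CI -0.30 to 0.91). Ppp1r15a encodes GADD34, which directs protein phosphatase 1 to the translation factor eIF2α. It ranged from 362 in 5L to 838 in 6L and had a log2 fold change of 0.19 (95% CI -0.29 to 0.67). None of these 3 genes passed the threshold, by limma or with any library left out.

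Promoter windows of 300 bases (250 before to 50 after a RefSeq start, GRCm38.p6) were read for 22 of the 27 immediate-early genes, in 28 windows. Fosl1, Egr1, Egr3, Ier2 and Myc were not read, and the window of Jund ends before the start of the gene in GENCODE M21. The CArG box stood in 6 windows (21.4%) of 3 genes, Egr2, Dusp5 and Zfp36, against 1.63% of the 32851 windows of 27025 genes, and 4 of the 6 are windows of alternative starts of Egr2. The 3 excerpts of 60 bases below are shown because these genes were among those lowest in 5L and highest in 7N; capitals mark the CArG box. They lie at chr10:67537469-67537528 (plus strand), chr19:53529038-53529097 (plus strand) and chr7:28379252-28379311 (minus strand), and the box begins at -72, -82 and -58 with the start counted as 0.
Egr2: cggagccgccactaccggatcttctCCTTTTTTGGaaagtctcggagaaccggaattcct
Dusp5: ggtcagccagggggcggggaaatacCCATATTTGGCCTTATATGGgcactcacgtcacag
Zfp36: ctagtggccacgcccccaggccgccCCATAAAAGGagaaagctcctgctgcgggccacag
Dusp5 holds 2 adjoining boxes. Fos, Fosl2, Atf3, Ier3, Dusp1, Btg2, Maff, Klf6 and Gadd45b were also lowest in 5L and highest in 7N. None of them had a CArG box in the windows read. The cAMP response element TGACGTCA stood in 4 windows (14.3%), those of Dusp1, Btg2, Maff and Ppp1r15a, against 1.79% of all windows, and TATAAA in 5 (17.9%) against 13.6%. The AP-1 motif TGANTCA was in 0 of 28 windows and in 7.81% of all. These motifs were searched on both strands, and a match is a description of the sequence.

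Among the heat-shock genes, the HSP70 proteins bind unfolded chains. Hspa1a (chr17:34969190-34972156, minus strand) and Hspa1b (chr17:34956436-34959238, minus strand) encode the inducible HSP70, and each is a single exon. Hspa1a measured 210.1, 728, 619 and 757 normalized reads in the agonistic CD40 mAb libraries and 181, 476, 218 and 966 in the isotype control libraries. It was low in 5N, 5L and 8N and highest in 9L, and the groups overlapped. The group values were 579 ± 253 against 460.0 ± 362 normalized reads, and the log2 fold change was 0.50 (95% CI -0.69 to 1.68) with limma p = 0.377, adjusted p = 0.9997, exact permutation p = 0.543. Hspa1b measured 483, 1231, 1039.7 and 1320.5 normalized reads in the agonistic CD40 mAb libraries and 508, 959, 348 and 1386 in the isotype control libraries, with the same 3 libraries low and 9L highest. Its group values were 1019 ± 376 against 800.5 ± 468 normalized reads, and the log2 fold change was 0.45 (95% CI -0.50 to 1.39) with limma p = 0.318, adjusted p = 0.9997, exact permutation p = 0.457. Leaving out 1 library, the log2 fold change of Hspa1a ran from 0.16 without 5L to 0.96 without 9L, with 0.93 without 5N, and that of Hspa1b from 0.12 without 8N to 0.78 without 9L, and neither passed the threshold. These genes share much sequence, with 66.3% of the 50-base windows of Hspa1a and 62.3% of those of Hspa1b also found in other genes, mainly in each other, so that how reads were divided between them is uncertain.

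Hspa8 encodes the HSP70 that cells make without stress (chr9:40800984-40810087, plus strand). It measured 25569, 14064, 20407 and 18850.4 normalized reads in the agonistic CD40 mAb libraries and 23986, 16556, 15004 and 24121 in the isotype control libraries and was the most abundant member per length (8279 normalized reads per kb). The values in 5N, 5L and 9L were the 3 highest, and 6L, 8N and 7N the 3 lowest. The group means were 19723 ± 4741 against 19917 ± 4819 normalized reads, and the log2 fold change was -0.014 (95% CI -0.52 to 0.49) with limma p = 0.953, adjusted p = 0.9997, exact permutation p = 0.943. Of its windows, 39.4% also occur in other genes, mainly Gm15459, Gm26825 and Gm8355.

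The HSP90 proteins fold kinases and steroid receptors. Hsp90aa1, the stress-inducible form (chr12:110690605-110702728, minus strand), measured 8856, 5792, 7373 and 7446 normalized reads in the agonistic CD40 mAb libraries and 12085, 6566, 6716 and 7653 in the isotype control libraries. It was highest in 5L and lowest in 6L, and its log2 fold change was -0.13 (95% CI -0.60 to 0.33) with limma p = 0.537, adjusted p = 0.9997, exact permutation p = 0.629. Hsp90ab1, the constitutive form (chr17:45567775-45573271, minus strand), measured 19778, 16147, 18967 and 17679 normalized reads in the agonistic CD40 mAb libraries and 21080.2, 15690.0, 17113 and 19339 in the isotype control libraries. Its values spanned 1.34-fold, the narrowest range of the 38 members, and its log2 fold change was -0.0079 (95% CI -0.35 to 0.33) with limma p = 0.96, adjusted p = 0.9997, exact permutation p = 0.971. Sequence shared with other genes covered 47.5% of the windows of Hsp90aa1 and 3.44% of those of Hsp90ab1. Per length, Hsp90ab1 stood at 7232 and Hsp90aa1 at 2381 normalized reads per kb.

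Hsph1 encodes HSP110, a nucleotide exchange factor for HSP70 (chr5:149614287-149636376, minus strand). It measured 2580.4, 926, 1523 and 1406 normalized reads in the agonistic CD40 mAb libraries and 2476, 633, 1138 and 2468 in the isotype control libraries. The values in 5N, 5L and 9L were close to each other and above those of the other 5 libraries, and none of its windows occur in other genes. The group values were 1609 ± 697 against 1679 ± 939 normalized reads, and the log2 fold change was 0.054 (95% CI -0.90 to 1.01) with limma p = 0.902, adjusted p = 0.9997, exact permutation p = 0.943. Dnaja1 and Dnajb1 encode HSP40 proteins, which deliver clients to HSP70. Dnaja1, with 20.6% of its windows shared with other genes, ranged from 1263 in 7N to 2367 in 5N and Dnajb1 from 502 in 8N to 972 in 9L, and their log2 fold changes were -0.013 (95% CI -0.53 to 0.50) and 0.16 (95% CI -0.26 to 0.57).

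Hspb1 encodes the small heat-shock protein HSP25. It was between 188 and 215 normalized reads in the isotype control libraries 5L, 7N and 8N and 542 in 9L, while the agonistic CD40 mAb libraries lay between 249 and 305. The log2 fold change of Hspb1 was 0.11 (95% CI -0.56 to 0.77), and its ratio of group means was 0.967. Without 9L, which held the highest value of Hspb1, its log2 fold change was 0.47 (ratio 1.39, limma adjusted p = 0.9999), short of the 1.5-fold threshold. Dnajb1 had 0.34 without 9L (ratio 1.26, limma adjusted p = 0.9999). Before adjustment both genes were below the level of 0.05 in that fit, as were 3.21% of all genes. Hspd1 and Hspe1 encode the mitochondrial chaperonin HSP60 and its partner HSP10, and they lie head to head. Hspd1 was 5100.2 in 5L and between 2569 and 2878 in the other isotype control libraries, with agonistic CD40 mAb values from 2193 to 3478. Hspe1 was also highest in 5L, from 438 in 7N to 889.5 in 5L. Their log2 fold changes were -0.13 (95% CI -0.62 to 0.37) and -0.061 (95% CI -0.49 to 0.37). Sequence shared with other genes covered 50.1% of the windows of Hspb1, 42.1% of Hspd1 and 22.8% of Hspe1.

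A heat-shock element, searched as GAANNTTC or TTCNNGAA, stood in 8 of the 13 promoter windows (61.5%) and in 7 of the 8 heat-shock genes with a window, against 15.1% of all windows (RefSeq, GRCm38.p6). The windows of Hspd1 and Hspe1 overlap and hold the same elements. Dnajb1 had none in its windows, and Hspa8, Hsp90aa1 and Hsp90ab1 were not read. The element stood in 10.7% of the immediate-early windows (Fosl2, Jun and Egr2). Excerpts of 60 bases are shown for 4 genes to set the like pair Hspa1a and Hspa1b beside Hsph1, which was high in 5N, 5L and 9L, and Hspb1, which was high in 9L; capitals mark the element. They lie at chr17:34972226-34972285 (minus strand), chr17:34959308-34959367 (minus strand), chr5:149636335-149636394 (minus strand) and chr5:135887777-135887836 (plus strand), and the first element begins at -104, -104, -54 and -117.
Hspa1a: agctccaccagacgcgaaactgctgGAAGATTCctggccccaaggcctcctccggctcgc
Hspa1b: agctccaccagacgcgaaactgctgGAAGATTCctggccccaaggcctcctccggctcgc
Hsph1: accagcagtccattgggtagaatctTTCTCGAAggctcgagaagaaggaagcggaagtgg
Hspb1: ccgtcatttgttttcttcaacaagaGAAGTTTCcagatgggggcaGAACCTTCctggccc
The windows of Hspa1a and Hspa1b were identical at 296 of 300 bases (98.7%).

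Libraries of the same treatment differed in the level of the members, and many members stood high or low in the same libraries. For each gene, the deviation of a library was taken as its log2(normalized reads + 1) minus the mean of the 8 libraries, with no test. The median deviation of the 27 immediate-early genes was -0.29 in 5N, 0.52 in 6L, 0.03 in 6R and 0.05 in 10N, and -0.68 in 5L, 0.49 in 7N, -0.12 in 8N and 0.05 in 9L. The lowest and the second highest median, in 5L and 7N, belonged to the same treatment group. Over all genes tested, the medians lay between -0.05 and 0.05. Library 5L held the lowest of 8 values for 18 of 27 immediate-early genes (66.7%) and for 29.7% of all genes tested. Library 7N held the highest for 13 of 27 (48.1%, against 26.5%), and 6L for 9 of 27 (33.3%, against 15.1%). In 6L, 26 of 27 were above the mean of the 8 libraries, and in 5L 2 of 27, Nr4a3 and Dusp2.

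**Figure D2:**
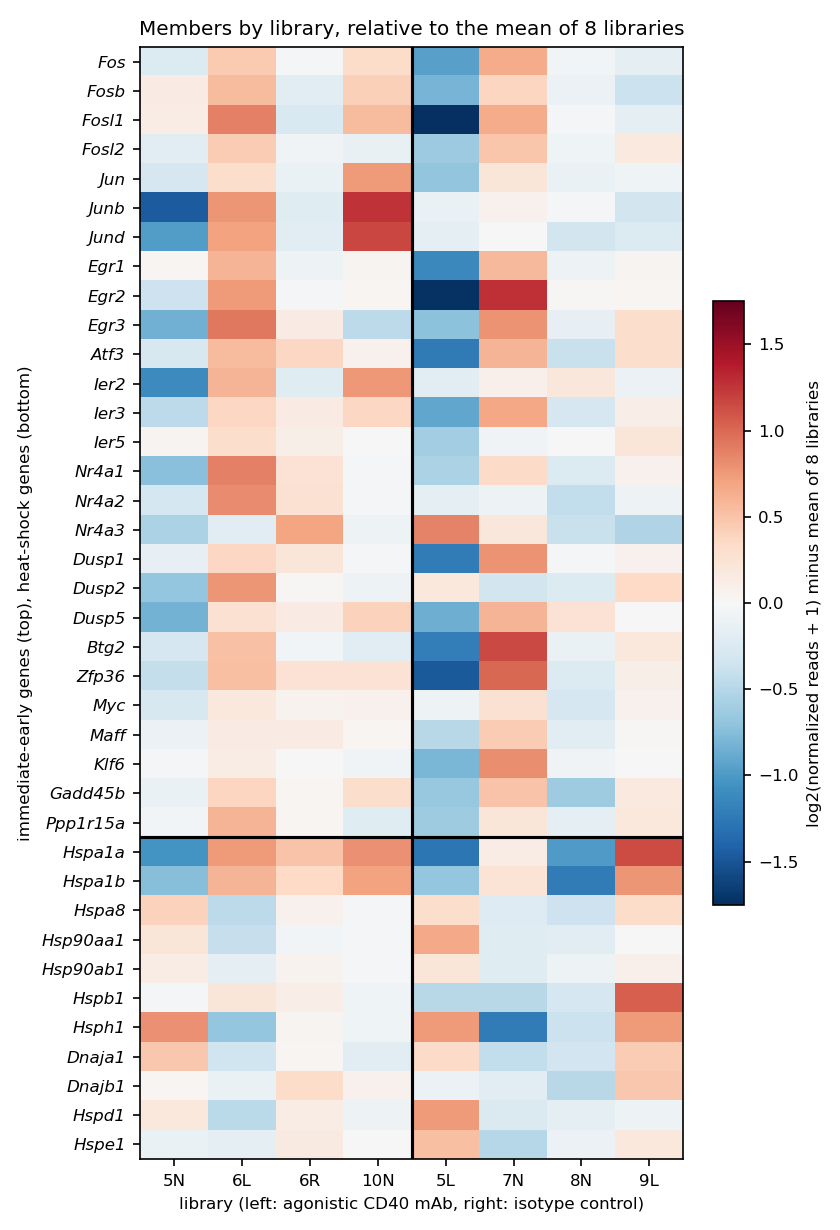
Deviation of each member (rows; immediate-early genes above the line, heat-shock genes below it) in each of the 8 libraries (columns; agonistic CD40 mAb left of the line, isotype control right of it), as log2(normalized reads + 1) minus the mean of the 8 libraries, red above and blue below it. Library 5L is blue for 25 of 27 immediate-early genes and 6L red for 26 of 27, while 8N is blue for all 11 heat-shock genes and 9L red for 10.

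The medians of the heat-shock genes differed in sign from those of the immediate-early genes in 5N, 6L, 10N, 5L and 7N, without a test. Their median deviation was 0.12 in 5N, -0.17 in 6L, 0.11 in 6R and -0.04 in 10N, and 0.31 in 5L, -0.23 in 7N, -0.33 in 8N and 0.45 in 9L. In 5L, where the immediate-early genes were lowest, 7 of 11 heat-shock genes were above the mean of the libraries, and Hspa1a, Hspa1b, Hspb1 and Dnajb1 were below it. The inducible HSP70 genes had the signs of the immediate-early medians in the libraries where the 2 medians differed in sign. For Hspa1a and Hspa1b the deviations were -1.05 and -0.75 in 5N, 0.74 and 0.60 in 6L, 0.80 and 0.70 in 10N, -1.26 and -0.68 in 5L and 0.13 and 0.24 in 7N. The highest of 8 values was in 5L for 4 heat-shock genes, in 9L for 4 and in 5N for 3, while 20.9%, 8.28% and 8.93% of all genes were highest there. The lowest was in 7N for 5, in 6L for 3, in 8N for 2 and in 5L for 1 (Hspa1a), against 21.1%, 10.0%, 5.61% and 29.7% of all genes. All 11 were below the mean in 8N. No comparison between the lists was tested.

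**Figure D3:**
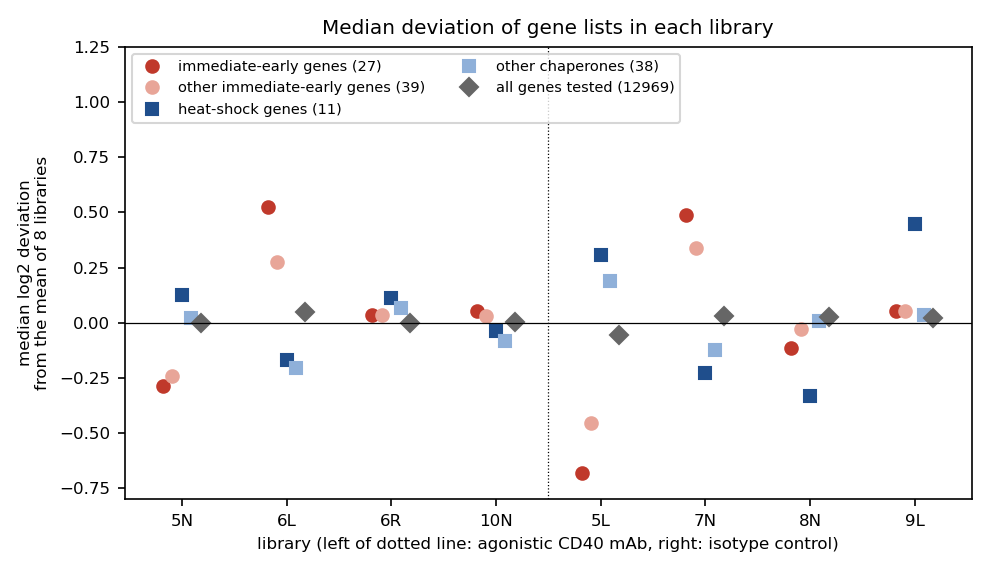
Median log2 deviation from the mean of 8 libraries (y axis) for the 27 immediate-early and 11 heat-shock genes, for 39 other immediate-early genes and 38 other chaperones, and for all 12969 genes tested, in each library (x axis). The immediate-early medians run from -0.68 in 5L to 0.52 in 6L, and those of all genes stay between -0.05 and 0.05.

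Further genes of both pathways, from lists written with earlier results of these data known, were read in the same way. Of 41 other immediate-early genes, 39 were tested, and their median deviation was -0.24 in 5N, 0.28 in 6L, -0.45 in 5L and 0.34 in 7N, with 5L lowest for 23 (59.0%) and 7N highest for 19 (48.7%). Of 38 other chaperones, the median deviation was -0.21 in 6L, 0.19 in 5L, -0.12 in 7N, 0.04 in 9L and 0.0078 in 8N, where 20 of the 38 were above the mean of the libraries. The 16 upstream regulators (genes for factors and kinases that act on the promoters above) lay between -0.08 and 0.06 in every library, and the 16 genes of the endoplasmic reticulum stress and integrated stress response between -0.24 in 6L and 0.23 in 5N. In the treatment comparison, 0 of these 109 genes passed the threshold and 0 had an unadjusted p of at most 0.05, by limma, edgeR and DESeq2 alike. Their median log2 fold changes were 0.06 for the other immediate-early genes (28 of 39 above 0), -0.07 for the other chaperones (13 of 38), 0.02 for the upstream regulators (9 of 16) and -0.06 for the stress response genes (6 of 16).

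Markers of other cell types differed between the same libraries. The median deviation of the 6 mural markers was -0.67 in 5N, 0.36 in 6L, -0.93 in 5L and 0.63 in 7N, and that of the 9 leukocyte markers -0.24, 0.57, -0.79 and 0.46 in the same libraries. The 6 fibroblast markers had 0.59, 0.08, -1.01 and 0.37 there. The 12 endothelial markers had 0.06, 0.39, -0.31 and -0.13, and the 7 melanoma markers -0.28, -0.58, 0.94 and -0.32. In 8N and 9L, where the heat-shock medians were -0.33 and 0.45, the leukocyte markers had -0.53 and 0.44, the mural markers 0.40 and 0.30, the fibroblast markers 0.29 and -0.04, the endothelial markers 0.17 and 0.14 and the melanoma markers -0.07 and -0.25. In the treatment comparison, where 23 of 27 immediate-early genes had a log2 fold change above 0, so did 11 of 12 endothelial markers (median 0.15), 6 of 9 leukocyte markers (0.14) and 5 of 6 fibroblast markers (0.15), and 0 of 6 mural markers (-0.20) and 0 of 7 melanoma markers (-0.07). Before adjustment, no marker of these lists was below the level of 0.05 by limma. The part of other cells in the member values was not tested. Depth also differed. The libraries with the lowest and the second highest immediate-early median, 5L and 7N, were the 2 shallowest, while 6L, with the highest median, held 21078985 reads and 5N was the deepest.

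The spread within groups was summarized as the residual SD of log2(normalized reads + 1) in the limma fit, given as a description. Its median was 0.548 for the immediate-early genes, 0.387 for the heat-shock genes and 0.281 for all genes tested. All 27 immediate-early genes and 10 of 11 heat-shock genes lay above the trend of SD with expression, as 50.5% of all genes did. In the upper quartile of SD over all genes there were 18 immediate-early genes (66.7%) and 4 heat-shock genes (36.4%). The largest values were 0.997 for Hspa1a, 0.933 for Egr2, 0.856 for Junb, 0.7997 for Hsph1, 0.798 for Fosl1 and 0.788 for Hspa1b. The smallest were 0.161 for Hsp90ab1 and 0.222 for Myc. The highest of the 8 values was 1.48 to 8.14 times the lowest for the immediate-early genes (median 3.02) and 1.34 to 5.34 times for the heat-shock genes (median 2.09), against a median of 1.77 for the 12825 tested genes with a read in every library. Without the 2 shallowest libraries, 5L and 7N, an alternative chosen after seeing the data, the median SD was 0.369 for immediate-early genes, 0.392 for heat-shock genes and 0.209 for all genes. The upper quartile then held 16 immediate-early genes (59.3%) and 7 heat-shock genes (63.6%), and 24 immediate-early genes lay above the trend. Isotype control SDs of normalized reads were the larger ones for 18 of 27 immediate-early genes and for 11 of 11 heat-shock genes, against 69.4% of all genes tested, in the group that holds the 3 shallowest libraries.

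**Figure D4:**
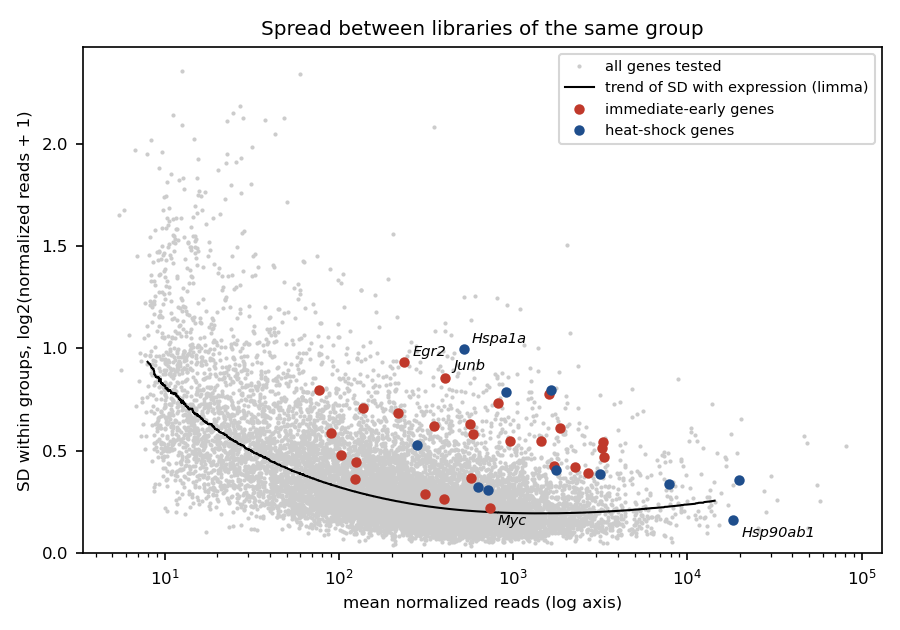
Residual SD within groups of log2(normalized reads + 1) (y axis) against mean normalized reads (x axis, log scale) for all 12969 genes tested in grey, immediate-early genes in red and heat-shock genes in blue, with the limma trend as a line (running median). All red points and all blue points but Hsp90ab1 (0.161) lie above the trend.

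Junb, Jund and Ier2, 3 single-exon genes of high GC content that were picked out after their values were seen, had their lowest value in 5N and their highest in 10N. Their deviations were -1.45, -0.98 and -1.12 in 5N and 1.27, 1.17 and 0.75 in 10N. Transcript GC content was 62.6% for Junb, 67.1% for Jund and 60.9% for Ier2, all within the top decile of GC (58.1% to 70.4%). The other members in this decile had -1.05 in 5N and 0.80 in 10N (Hspa1a), -0.75 and 0.70 (Hspa1b), 0.13 and 0.56 (Fosl1), -0.67 and -0.08 (Dusp2) and -0.03 and -0.08 (Hspb1), so that not all of them were low in 5N and high in 10N. Over the genes of this decile, the median deviation was -0.31 in 5N, 0.32 in 10N and -0.30 in 7N, and over the bottom decile it was 0.13, -0.11 and 0.24. With the GC trend of each library removed, the deviations in 5N were -1.04 for Junb, -0.42 for Jund and -0.77 for Ier2, and in 10N 0.90, 0.65 and 0.44. The immediate-early medians with the trend removed were -0.64 in 5L, 0.62 in 7N, 0.46 in 6L and -0.24 in 5N, and the heat-shock medians 0.39 in 5L, 0.41 in 9L, -0.23 in 7N and -0.37 in 8N.

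**Figure D5:**
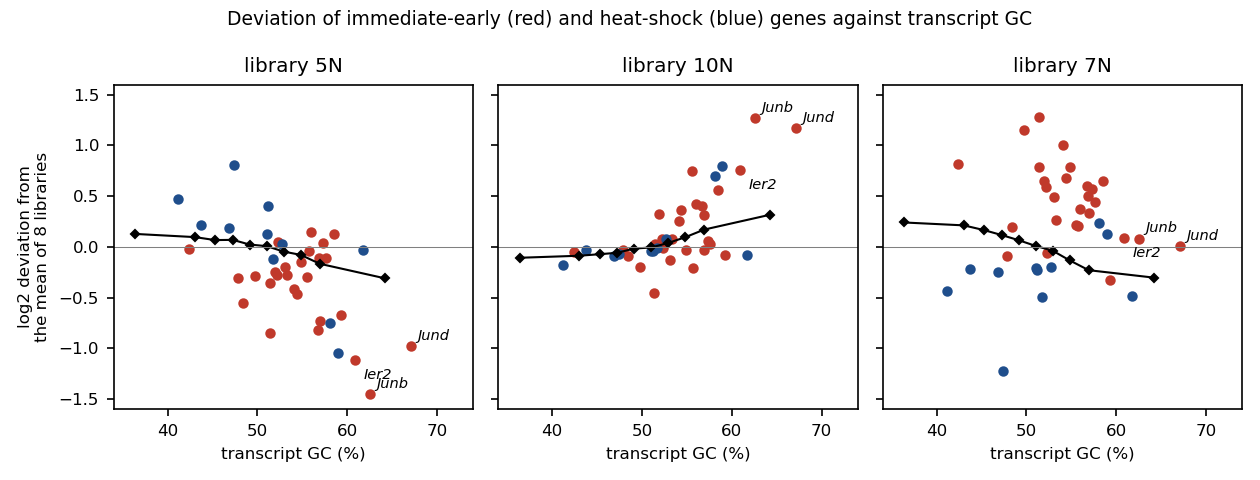
Log2 deviation from the mean of 8 libraries (y axis) against transcript GC content in percent (x axis) in libraries 5N, 10N and 7N, for immediate-early genes (red) and heat-shock genes (blue), with the median of all genes in each decile of GC as black diamonds joined by a line. Junb, Jund and Ier2 lie low in 5N, where the line falls to -0.31, and high in 10N, where it rises to 0.32.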

How the data were processed

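RNA of CD45- CD31+ cells sorted from 4 agonistic CD40 mAb treated and 4 isotype control treated B16-F10 tumors was sequenced, 1 library per tumor. The deposited signal values are gene read counts that the authors divided by DESeq2 size factors, after alignment to mm10 with TopHat2 and assignment to genes in Partek 6.6; the submitters' processing notes also name CASAVA 1.8 and Bowtie2 2.2.1. The labels give the same time after the last injection, 1 day, for all 8 tumors, and no date of harvest. The study's supplement names more than 1 such time for its sorting experiments. Whether the tumors were harvested together is not known, and harvest day was not a term here. The study's methods also name a correction for harvest day and a floor of 1, and neither is visible in the values, of which 99.9% were within 0.1 read of a whole number of reads. These recovered reads gave the depths, and limits from them cover counting error only.

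Groups and mouse names came from the labels. Values were taken as log2(value + 1), so that fold changes of low genes are understated, and tested with limma 3.58.1 (R 4.3.3), with the variance trend and treatment as the only term, over 12969 genes, those with the mean of either group above 10. P-values were adjusted by the Benjamini-Hochberg method. Called genes had group means at least 1.5-fold apart and p no higher than 0.05. Single members were also tested by a two-sided exact permutation test over 70 assignments. The p-values set the group difference against the spread between libraries of the same group, with 1 library per tumor. Differences in sorting, depth and counting are part of that spread.

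The members and lists were chosen with earlier results of these data known. All members were named, and values in every library were given for the 3 of each list with the largest residual SD and the 3 with the largest mean, for members past the threshold or with groups that do not overlap (0 of 38), and for further genes said to be chosen after their values were seen. By symbol, 19322 of 20057 genes (96.3%) matched GENCODE M21 (mm10). Promoter windows came from RefSeq (GRCm38.p6), with 30 of 38 members matched. Alternatives were pseudocounts of 0.1 and 10, other filters, quantile normalization, limma without the trend, edgeR 4.0.16 and DESeq2 1.42.0 on the recovered reads, leaving out each library and, chosen after seeing the data, removal of a GC trend and leaving out 5L and 7N together.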

Additional observations from a re-analysis of the deposited data

Results flagged for a closer look

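In groups of 4, a library was singled out where its gap to the nearest other library, divided by the range of the group, was above Dixon's 95% critical value. This was done for 38 members in both groups, 76 checks, of which chance alone gives about 5%, and 2 were found. Hspb1 was 541.7 normalized reads in isotype control library 9L, against 188 to 215 in the other isotype control libraries (gap over range 0.923). Hspd1 was 5100.2 normalized reads in isotype control library 5L, against 2569 to 2878 in the others (0.878). In 9L, 10 of 11 heat-shock genes were above the mean of the 8 libraries, and in 5L 7 of 11. Library 5L had the fewest reads on genes (2971689) and the highest melanoma marker sum (93734). The part of either in these values was not tested.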

How the results depend on the processing

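The count of 0 members past the threshold was the same under every alternative with all 8 libraries and without 5L and 7N together. Leaving out 1 library at a time, the number of immediate-early genes past the threshold was 0 to 3. The 3 were called higher without 5N, where 174 of 12993 genes were called higher. Fosb was called higher without 7N, where 2.70% of all genes reached the p level of the threshold before adjustment. The number of all genes called higher was 331 when all genes with a value above 0 were tested. The number called lower was 93 in that test, 13 with a larger group mean above 50, 63 with quantile normalization, 57 without the trend, 47 with edgeR, 58 with DESeq2, 56 without 5L and 7N, and 27 to 123 with 1 library left out (123 without 5L, 52 without 9L). By adjusted p, limma called 2 genes (19 without 5L, 1 to 3 without any other single library), edgeR 3 and DESeq2 64, none of them members.

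The sign of several uncalled log2 fold changes turned. The values were Dusp2 -0.0147, Hspa8 0.0764 and Hsp90ab1 0.0641 with quantile normalization, Fosl2 -0.00423, Egr2 -0.0735, Klf6 -0.0718, Hspb1 -0.10 and Hsph1 -0.0761 with edgeR, Fosl2 -0.0064, Egr2 -0.0855, Klf6 -0.0762, Hspb1 -0.0717 and Hsph1 -0.0721 with DESeq2, Ier2 -0.017, Dusp2 -0.0171 and Dnaja1 0.00049 with the GC trend removed, and Fosl2 -0.0316, Ier2 -0.037, Nr4a3 0.42, Dusp2 -0.0417, Hspa8 0.0197, Hsp90aa1 0.023, Hspb1 -0.32, Hsph1 -0.16 and Hspd1 0.0572 without 5L and 7N. With 1 library left out, the ranges of the members that turned sign were Fos -0.0253 to 0.51, Fosl2 -0.18 to 0.19, Junb -0.20 to 0.70, Egr1 -0.0305 to 0.53, Egr2 -0.34 to 0.66, Egr3 -0.45 to 0.15, Ier2 -0.24 to 0.39, Ier3 -0.0671 to 0.46, Nr4a1 -0.0768 to 0.46, Nr4a3 -0.32 to 0.20, Dusp1 -0.17 to 0.49, Dusp2 -0.24 to 0.24, Dusp5 -0.29 to 0.27, Btg2 -0.42 to 0.37, Zfp36 -0.14 to 0.69, Myc -0.0678 to 0.12, Maff -0.0415 to 0.27, Klf6 -0.23 to 0.31, Hspa8 -0.15 to 0.14, Hsp90aa1 -0.23 to 0.0652, Hsp90ab1 -0.079 to 0.063, Hspb1 -0.0363 to 0.47, Hsph1 -0.34 to 0.31, Dnaja1 -0.17 to 0.13, Hspd1 -0.23 to 0.10, Hspe1 -0.24 to 0.10, and those of the members that did not were Fosb 0.27 to 0.67, Fosl1 0.18 to 0.98, Jun 0.13 to 0.48, Jund 0.0169 to 0.74, Atf3 0.00529 to 0.62, Ier5 0.0584 to 0.33, Nr4a2 0.17 to 0.55, Gadd45b 0.14 to 0.53, Ppp1r15a 0.0175 to 0.29, Hspa1a 0.16 to 0.96, Hspa1b 0.12 to 0.78, Dnajb1 0.0208 to 0.34. The cause was not tested. Both pseudocounts left all signs and calls of the members as they were.

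With 4 libraries per group and the spread shown above, 28 of 38 intervals reach a ratio of 1.5, and 8 reads lie behind the lowest member value (Fosl1 in 5L).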
